A study of Mus musculus with 6 samples.

Results

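Ki-67 knockout clone 2 of NIH/3T3, an established line of mouse embryonic fibroblasts, was compared with the wild-type line by sequencing of total RNA depleted of rRNA with a strand-specific kit. The line derives from Swiss albino mouse embryos and was grown in serum-containing medium in every group. The comparison rests on 4 of the 6 libraries of the study: 2 titled as wild type (WT, called ctl in the labels) and 2 titled as Ki-67 knockout clone 2 (koP65, genotype Mki67-/-). The other 2 libraries come from Ki-67 knockout clone 1 of the same line and genotype, and were set beside clone 2 to separate changes that both clones show from those in which clone 2 differs from clone 1. No treatment and no time course are given in the labels for any group. Each knockout is 1 clone, so for a difference found in clone 2 the loss of Ki-67 and the history of that clone cannot be told apart. The sources used here do not give the editing method or the exons targeted. The labels do not state that paired libraries of a group were cultured separately, so the spread behind each p-value may be technical only.

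Ki-67, encoded by Mki67, is a large nuclear protein that is made in cycling cells and is lost in resting cells, which is why pathologists use it as a marker of proliferation. During mitosis it covers the surface of condensed chromosomes and keeps them apart, and in interphase it lies around the nucleolus and with heterochromatin. Fibroblasts such as NIH/3T3 make collagen-rich matrix, adhere through integrins, and can switch on smooth-muscle genes for actin and myosin, a program that serum response factor and its MRTF cofactors drive.

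The libraries held between 3873249 and 19678782 counts assigned to genes on the reverse strand, with WT replicate 1 the shallowest, WT replicate 2 at 11377172, and the clone 2 libraries at 15862850 and 15087148. Values below are CPM, counts scaled to a common library size after TMM normalization, given as replicate 1 and replicate 2 of each group. Fold changes are log2 values from edgeR's quasi-likelihood fit to all 6 libraries, given with a standard error (SE). The SE was derived as the size of the log2 fold change divided by the square root of the test's F statistic. It is thus not an estimate separate from the p-value. A gene was called where the Benjamini-Hochberg adjusted p over all 13120 genes tested was below 0.05. On principal component analysis WT separated from both clones on the first axis (67.9% of variance) and the clones from each other on the second (13.8%). Gene starts and ends are from GENCODE M21 on GRCm38.

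A protocol text of the labels names 4T1, a mouse mammary carcinoma line, where the titles, sources and tissue labels name NIH/3T3 and fibroblasts. The 10 epithelial markers examined summed to between 1.09 and 2.07 CPM per library, Epcam, Esrp1 and Krt19 were at 0 counts in all 6 libraries, and the 13 fibroblast markers summed to between 8678 and 11869 CPM.

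Mki67 itself (chr7:135689784-135716361, minus strand) stood at 49.2 and 55.2 CPM in WT, 4.32 and 7.69 in clone 2 and 4.24 and 4.59 in clone 1. Its transcript was thus detected in every knockout library and lay below both WT libraries in each. The fold change was -3.13 ± 0.22 (SE) in clone 2 (edgeR adjusted p = 3.36e-07), and clone 2 did not differ from clone 1 beyond the spread (0.44 ± 0.24, adjusted p = 0.434).

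Against WT, 1686 genes (12.9% of those tested) were higher in clone 2 and 1906 (14.5%) were lower, 27.4% in all, and the median fold change over all genes tested was 0.00. Without clone 2 replicate 1 the counts were 754 and 915, and without clone 2 replicate 2 they were 967 and 1116. Of the 1686 and 1906, 539 rose and 667 fell at least 2-fold. Of all 3592 genes called against WT, 3357 were not called between clone 2 and clone 1. The 15 largest rises among called protein-coding genes whose average log2 CPM reached 3 are described here. Adcy1, a neuronal calcium-stimulated adenylyl cyclase, rose from 2.45 and 1.17 CPM in WT to 91.3 and 92.3 in clone 2 (5.91 ± 0.23, adjusted p = 8.85e-10). In clone 1 Adcy1 read 74.1 and 69.8 CPM. Trim30a, an interferon-inducible gene with close paralogs among which reads could be split, had 0 and 0.18 CPM in WT and 12.3 and 9.06 in clone 2. With 2 counts in WT in all, the ratio of the pooled libraries was 79.4, between 21.8 and 658 (95% counting interval, counting error only). Other genes with large rises encode secreted or signalling proteins: Cxcl5, a chemokine that recruits neutrophils (3.24 ± 0.21), Gdf5, a BMP-family ligand of joint formation (3.08 ± 0.25), Sod3, extracellular superoxide dismutase (2.66 ± 0.22), Csf1r, the receptor of macrophage colony-stimulating factor (2.30 ± 0.22), and Adra1b, an adrenergic receptor (2.33 ± 0.19). In clone 1 against WT these genes rose by 2.06, 2.27, 3.145, 2.05 and 1.41, in that order. Optn, an autophagy receptor, rose by 2.74 ± 0.24, Tnnt2, cardiac troponin T, by 2.70 ± 0.19 and Nkx2-5, a cardiac homeobox factor, by 2.28 ± 0.22. In clone 1 against WT, Optn rose by 3.16 and Nkx2-5 by 2.04. Eps8l2 (2.57 ± 0.17), which binds actin regulators, Plb1 (2.23 ± 0.28), a phospholipase, and Gm14137 (2.45 ± 0.20) rose as well, and Chil1 is described below. The remaining gene, Gm10800, a gene with near-identical copies in the genome, read 1.79 and 58.2 CPM in the 2 clone 2 libraries against 1.9 and 3.07 in WT, so its rise of 3.45 ± 1.11 (adjusted p = 0.0336) rested on clone 2 replicate 2 and was -0.60 without it. Against WT, the call of Gm10800 ended without scaling factors, with DESeq2, with limma-voom or after GC correction (adjusted p up to 0.413).

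**Figure D1:**
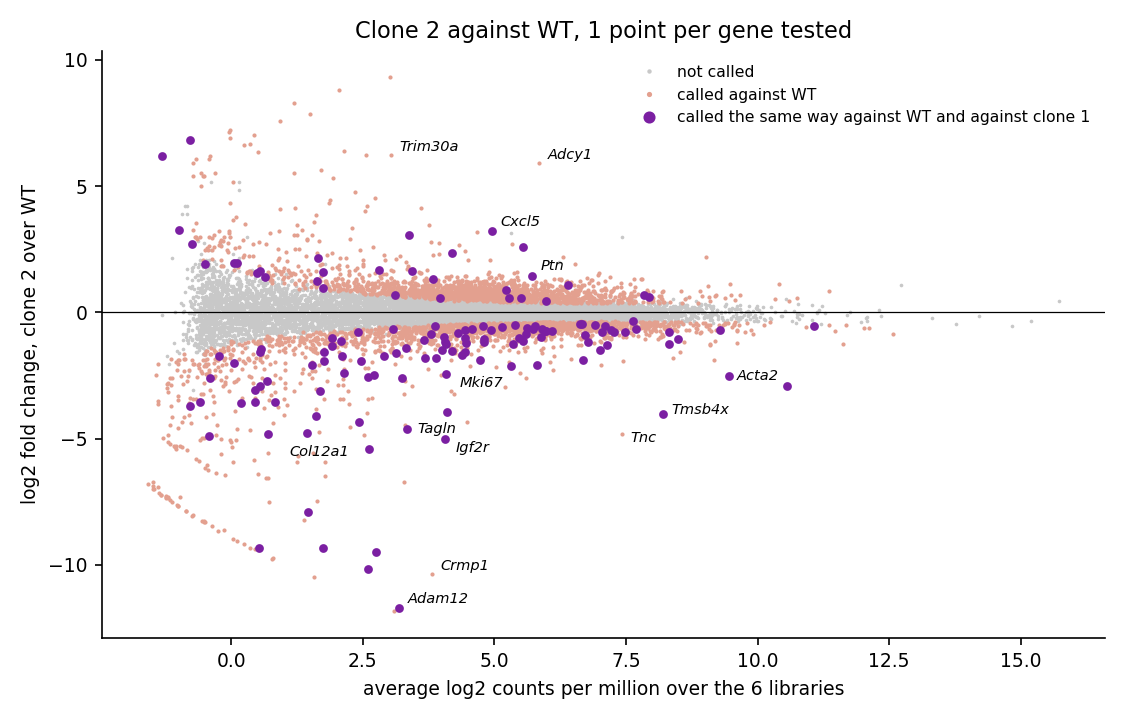
Log2 fold change of clone 2 over WT (vertical axis) against average log2 CPM over the 6 libraries (horizontal axis), 1 point per gene tested. Grey points were not called, salmon points were called against WT, and purple points were called in the same direction against WT and against clone 1; Adcy1 and Cxcl5 lie far above 0, and Adam12 (0 counts in clone 2, where the plotted value is no bound), Crmp1, Tnc, Tmsb4x and Acta2 far below.

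The 15 largest falls under the same criteria included Mki67 and matrix, adhesion and cytoskeletal genes. Tnc, the matrix glycoprotein tenascin-C, dropped from 487 and 499.96 CPM in WT to 17.7 and 17.5 in clone 2 (-4.81 ± 0.14, adjusted p = 9.3e-11). In clone 1 Tnc read 17.2 and 18.3 CPM. Crmp1, a cytoskeletal adaptor of semaphorin signalling, had 56.8 and 51.5 CPM in WT and 1 count in the 2 clone 2 libraries together, a ratio of 1665, between 298 and 65864 (95% counting interval). In clone 1 Crmp1 read 0.101 and 0 CPM. Emb and Adam12, described below, had no count in clone 2. Aldh1l1, a folate enzyme, fell from 37.8 and 38 to 0.37 and 0.326 CPM (-6.73 ± 0.26, adjusted p = 8.85e-10). In clone 1 Aldh1l1 read 0.303 and 0.314 CPM. The others were Brinp3 (-4.48 ± 0.28), Cthrc1, a secreted collagen-modulating protein (-4.32 ± 0.20), Tenm4, a cell-surface teneurin (-3.23 ± 0.22), Cth, the enzyme that makes cysteine from cystathionine (-3.24 ± 0.26), and Kcnab2, a potassium channel subunit (-2.96 ± 0.17), with Igf2r, Tagln, Tmsb4x and Soga1 described below. In clone 1 against WT the values were -3.95 for Brinp3, -5.25 for Cthrc1, -2.43 for Cth and -2.37 for Kcnab2.

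Clone 2 and clone 1 share the WT libraries, so their contrasts with WT are not independent of each other. The direct contrast of clone 2 with clone 1 called 155 genes higher (1.18% of those tested) and 310 lower (2.36%) in clone 2, 3.54% in all. Called in the same direction against both WT and clone 1 were 31 genes that were higher (0.236%) and 108 that were lower (0.823%). Of the 108 lower genes, 65 were not called in clone 1 against WT, 32 were lower there too and 11 were higher there. Of the 31 higher genes, the corresponding numbers were 23 not called, 7 also higher and 1 lower. Both counts moved with single libraries: without WT replicate 1 they were 107 and 202, without WT replicate 2 they were 134 and 69 above the 108, without clone 1 replicate 1 they were 9 and 56, without clone 1 replicate 2 they were 18 and 76, without clone 2 replicate 1 they were 8 and 39, and without clone 2 replicate 2 they were 11 and 43. An rRNA gene among the 108, CT010467.1, differed within groups (117 and 2278 CPM in WT, 99.96 and 219.96 in clone 2, 4356 and 1919 in clone 1), its fold change against WT was 0.46 without WT replicate 2, and the other 5 noncoding genes of the combined 139 are not described. CT010467.1 was no longer called against WT with DESeq2, with limma-voom or without clone 2 replicate 1 (adjusted p up to 0.141). CT010467.1 lost its call against clone 1 without scaling factors, with DESeq2 or without clone 1 replicate 1 or clone 2 replicate 1 (adjusted p up to 0.0866).

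Smooth-muscle actin and several of its partners were lower in clone 2 than in both WT and clone 1. Acta2, smooth-muscle alpha-actin and the usual marker of activated fibroblasts, stood at 1022 and 804 CPM in WT, 154 and 166 in clone 2 and 1022 and 1038 in clone 1. Both clone 2 libraries lay far below the other 4, and clone 1 did not differ from WT beyond the spread (adjusted p = 0.381). The log2 fold change was -2.51 ± 0.15 against WT (adjusted p = 1.23e-07) and -2.69 ± 0.15 against clone 1 (adjusted p = 1.83e-07).

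Tagln encodes transgelin, an actin-bundling protein of smooth muscle. It read 24.5 and 16.6 CPM in WT, 0.926 and 0.652 in clone 2 and 12.6 and 13.1 in clone 1, a log2 fold change of -4.62 ± 0.29 against WT (adjusted p = 1.38e-07) and of -4.0 ± 0.28 against clone 1 (adjusted p = 1.61e-06). Myl9, the regulatory light chain of smooth-muscle myosin, read 15.2 and 9.65 CPM in WT, 0.494 and 0.652 in clone 2 and 5.46 and 6.85 in clone 1. For both genes clone 1 lay between WT and clone 2, and clone 1 was itself called below WT (-0.62 for Tagln and -0.93 for Myl9). The log2 fold change of Myl9 was -4.34 ± 0.34 against WT (adjusted p = 8.95e-07).

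Actg2 and Acta1, the enteric smooth-muscle and the skeletal-muscle actin, changed in opposite directions in the clones. Actg2 read 28 and 23.1 CPM in WT, 6.05 and 7.5 in clone 2 and 46.9 and 45.8 in clone 1, so clone 2 was lower (-1.89 ± 0.18, adjusted p = 6.46e-06) and clone 1 higher (0.89, adjusted p = 0.00114) than WT. Acta1 read 2.45 and 1.71 CPM in WT, 0.309 and 0.326 in clone 2 and 14.1 and 13.1 in clone 1, and the difference between the clones was -5.38 ± 0.30 (adjusted p = 1.72e-07). Actin genes are close in sequence, and reads with several alignments stand in a row of their own in the tables, outside the gene counts.

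The promoters of Acta1, Acta2 and Myl9 are shown because serum response factor binds a motif called the CArG box. It was looked for in the 250 bases before each start (RefSeq, GRCm38.p6, 5′ to 3′ on the gene's strand). No promoter entry was found for Actg2 or Tagln. Capitals mark the CArG box in Acta1 and Myl9, where it is exact, and the matches with 1 mismatch in Acta2. With up to 1 mismatch Acta1 held 3 matches, Myl9 2 and Acta2 2, and the inexact ones of Acta1 and Myl9 are not marked.
Acta1 (chr8:123894776-123895025, minus strand): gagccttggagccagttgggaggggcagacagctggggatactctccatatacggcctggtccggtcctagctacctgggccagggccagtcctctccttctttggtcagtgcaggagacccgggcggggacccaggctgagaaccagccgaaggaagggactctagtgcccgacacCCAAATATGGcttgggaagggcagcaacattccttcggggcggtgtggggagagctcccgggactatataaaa
Myl9 (chr2:156775214-156775463, plus strand): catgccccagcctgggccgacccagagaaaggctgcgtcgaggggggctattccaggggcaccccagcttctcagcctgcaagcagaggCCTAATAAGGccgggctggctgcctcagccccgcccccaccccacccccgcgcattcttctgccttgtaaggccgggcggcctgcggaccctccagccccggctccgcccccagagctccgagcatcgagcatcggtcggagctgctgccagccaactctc
Acta2 (chr19:34255374-34255623, minus strand): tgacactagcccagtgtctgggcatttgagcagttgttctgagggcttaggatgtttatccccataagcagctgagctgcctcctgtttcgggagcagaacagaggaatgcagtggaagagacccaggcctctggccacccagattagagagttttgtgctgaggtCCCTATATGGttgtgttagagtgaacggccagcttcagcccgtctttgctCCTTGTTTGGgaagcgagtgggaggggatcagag
The CArG box reads as the same motif on both strands. An exact match lay 73 to 64 bases before the start in Acta1 and 161 to 152 bases before it in Myl9, and the Acta2 matches lay 84 to 75 and 34 to 25 bases before its start. Of the promoters of protein-coding genes tested, 1.41% (126 of 8940) held an exact match, against 5 of the 29 genes of the actin and contractile list that have a promoter entry. Of the protein-coding genes lower than both WT and clone 1, 4 of 83 did. With up to 1 mismatch, 9.21% (823 of 8940) of the tested promoters held a match, against 7 of the 29 and 13 of the 83. A match describes letters in this window and is not a binding site. The actin and contractile list was chosen by function and with earlier results known, and the 83 genes come from these same calls. The shares therefore say nothing about what changed in clone 2. The activity of serum response factor was not tested.

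Of the 32 tested members of the actin and contractile cytoskeleton list, 11 were lower and 2 higher in clone 2 than in WT, with a median of -0.20, against 14.5% lower and 12.9% higher over all genes. Against clone 1, 10 of the 32 were lower and 1 was higher. In clone 1 against WT, 4 were lower and 7 higher. Without clone 2 replicate 1 the number lower than WT was 5, and without clone 2 replicate 2 it was 7. Tmsb4x, thymosin beta-4, which holds actin monomers, dropped from 747 and 702 CPM in WT to 46.1 and 42.2 in clone 2 and to 136 and 132 in clone 1. It was thus low in both clones and lower in clone 2 (-1.60 ± 0.13, adjusted p = 4.53e-06); the gene has near-identical copies elsewhere in the genome, among which reads could be split. The higher members were Mylk, myosin light chain kinase (0.77 ± 0.23, adjusted p = 0.0246), and Des, the intermediate filament desmin, with 6.52 and 7.67 CPM in WT, 10.7 and 11.2 in clone 2 and 21 and 20.1 in clone 1. Of the nonmuscle cytoskeleton, Actb read 18785 and 13753 CPM in WT and 11263 and 12402 in clone 2 (-0.46 ± 0.19, adjusted p = 0.0953), and Myh9, nonmuscle myosin heavy chain, 2314 and 2254 in WT and 1660.2 and 1517 in clone 2 (-0.52 ± 0.15, adjusted p = 0.0172). Lmod1, leiomodin, read 1.36 and 1.44 CPM in WT and 0.37 and 0.326 in clone 2 (-2.0 ± 0.49, adjusted p = 0.00833). The calls against WT were lost for Des with DESeq2, with limma-voom, at equal depth or without either WT library or either clone 2 library (adjusted p up to 0.155), Mylk with DESeq2, at equal depth or without either clone 2 library (adjusted p up to 0.239), Myh9 without either clone 2 library (adjusted p up to 0.178) and Lmod1 with DESeq2 or without WT replicate 2 or either clone 2 library (adjusted p up to 0.0957). Against clone 1, calls ended for Lmod1 with DESeq2 size factors, without scaling factors, with DESeq2, with limma-voom, with only those groups in the fit, with unstranded counts or without either clone 1 library or either clone 2 library (adjusted p up to 0.401), Des at equal depth or without either clone 2 library (adjusted p up to 0.207) and Myh9 without either clone 1 library or either clone 2 library (adjusted p up to 0.358). Srf, serum response factor itself, chosen after its values were seen, was not called (-0.02 ± 0.16, adjusted p = 0.948).

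**Figure D2:**
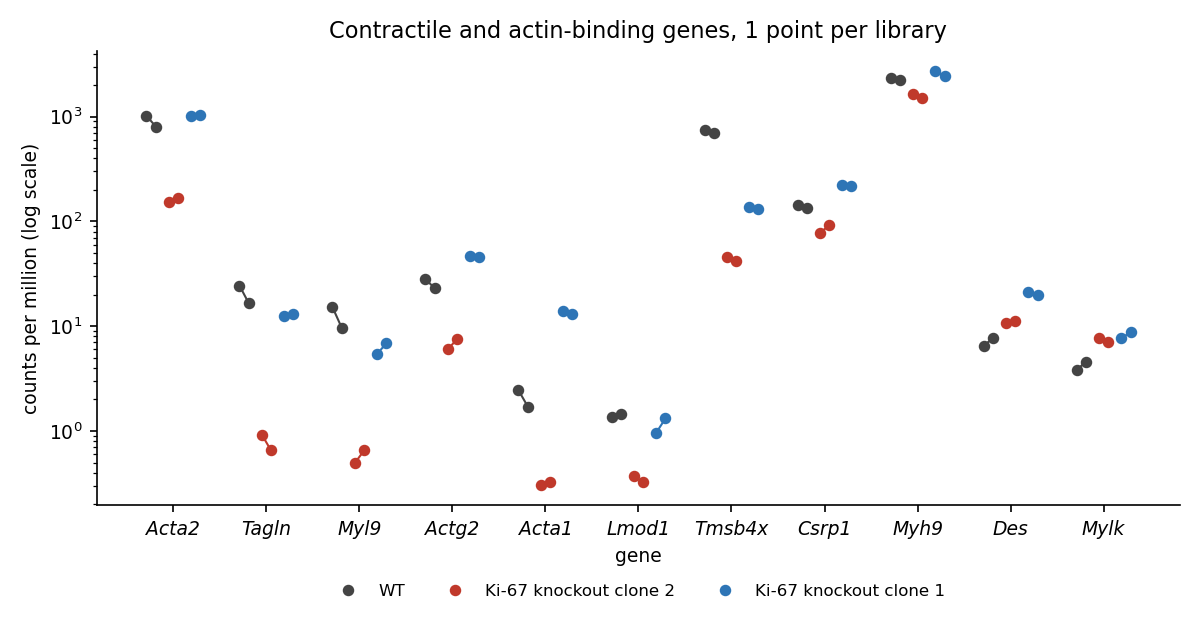
CPM (log scale) of 11 contractile and actin-binding genes, 1 point per library, with a line joining the 2 libraries of a group. Clone 2 (red) lies below WT (dark grey) and clone 1 (blue) for Acta2, Tagln, Myl9, Actg2, Acta1, Lmod1, Tmsb4x, Csrp1 and Myh9, and above WT for Des and Mylk.

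Beyond the actins, 10 other genes were called in opposite directions in the clones against WT, 12 in all (0.0915% of those tested). These genes were singled out after their values were seen. Cdkn1a, the p21 inhibitor of cyclin-dependent kinases and a target of p53, read 92.4 and 94.8 CPM in WT, 68.7 and 68.3 in clone 2 and 139 and 141 in clone 1. Its log2 fold change was -0.45 ± 0.12 in clone 2 (adjusted p = 0.0144) and 0.58 in clone 1 (adjusted p = 0.00266). Csrp1, a LIM protein of smooth muscle, read 142 and 134 CPM in WT, 76.9 and 92.3 in clone 2 and 224 and 219 in clone 1. Srpx2, a secreted sushi-domain protein, read 8.69 and 9.11 CPM in WT, 4.38 and 3.98 in clone 2 and 22.3 and 23.3 in clone 1. The same order was seen for B4galt4 (described below), Plac8 (-1.53 ± 0.19 in clone 2 and 0.50 in clone 1), Mogat2, an acyltransferase of triglyceride synthesis (-1.17 ± 0.18 and 0.58), Atp2b4, a plasma-membrane calcium pump (-1.02 ± 0.34 and 1.21), Ehhadh, a peroxisomal fatty-acid oxidation enzyme (-2.92 ± 0.62 and 1.30), and Ikzf1, the Ikaros factor of lymphoid cells (-2.73 ± 0.68 and 1.70). Ppargc1a, the PGC-1alpha coactivator of mitochondrial biogenesis, went the other way, with 0.543 and 0.992 CPM in WT, 2.1 and 3.06 in clone 2 and 0.303 and 0.126 in clone 1. Other settings ended the calls against WT of Cdkn1a after GC correction or without either clone 2 library (adjusted p up to 0.119), Csrp1 without clone 2 replicate 1 (adjusted p = 0.0525), Atp2b4 without scaling factors, with DESeq2, at equal depth or without WT replicate 2 or either clone 2 library (adjusted p up to 0.17), Ikzf1 at equal depth or without clone 2 replicate 1 (adjusted p up to 0.176) and Ppargc1a with DESeq2, after GC correction or without clone 2 replicate 2 (adjusted p up to 0.125).

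A second group of genes had no count at all in clone 2. Of the genes averaging at least 5 CPM in WT, 11 had 0 counts in both clone 2 libraries, and 6 of these, Emb, Pxdc1, Calhm2, Padi4, Galnt12 and Foxf1, also had 0 counts in both clone 1 libraries. With a floor of 3 counts over the clone 2 libraries, Emb, the cell-surface protein embigin, was at least 375-fold lower in clone 2 than in WT (25.5 and 39.1 CPM), Pxdc1 at least 143-fold (10.3 and 14.7 CPM in WT), Padi4, a histone citrullinating enzyme, at least 83.3-fold (6.52 and 8.39 CPM) and Foxf1, a mesenchymal forkhead factor, at least 66.2-fold (4.08 and 7.04 CPM). Calhm2, a calcium-regulated channel, and Galnt12, an enzyme that starts mucin-type glycans, were at least 81.1-fold and 60.5-fold lower.

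The other 5 genes at 0 in clone 2 were detected in clone 1 and differed between the clones. Adam12, a membrane metalloprotease of fibroblasts and developing muscle, read 32.1 and 28.6 CPM in WT, 4.85 and 3.9 in clone 1 and 0 in clone 2, at least 309.6-fold lower than in WT. Riox2, a nucleolar ribosomal oxygenase, read 11.7 and 9.74 CPM in WT and 8.39 and 9.43 in clone 1, where it did not differ beyond the spread (adjusted p = 0.425), and was at least 107-fold lower in clone 2. Gpx7, an endoplasmic-reticulum peroxidase, read 6.25 and 5.59 CPM in WT and 4.85 and 4.9 in clone 1 (adjusted p = 0.442) and was at least 60.5-fold lower in clone 2. B4galt4, a galactosyltransferase, read 5.71 and 7.04 CPM in WT and 12.9 and 12.9 in clone 1, higher than WT, and was at least 70.5-fold lower in clone 2. Brinp1, a neuronal gene, read 6.25 and 5.59 CPM in WT and 0.404 and 0.314 in clone 1. Against clone 1, the call of Brinp1 ended with DESeq2, at equal depth or without either clone 1 library or either clone 2 library (adjusted p up to 0.714).

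The promoters of Riox2 and Gpx7 are shown because these genes did not differ from WT in clone 1 beyond the spread and were at 0 in clone 2. Capitals mark each CG pair, the usual target of DNA methylation, which was not measured here.
Riox2 (chr16:59471525-59471774, plus strand): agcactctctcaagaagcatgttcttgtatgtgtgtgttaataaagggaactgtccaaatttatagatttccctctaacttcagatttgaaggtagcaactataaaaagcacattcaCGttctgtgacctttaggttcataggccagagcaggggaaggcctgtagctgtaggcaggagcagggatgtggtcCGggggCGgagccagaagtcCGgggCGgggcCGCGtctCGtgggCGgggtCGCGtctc
Gpx7 (chr4:108406714-108406963, minus strand): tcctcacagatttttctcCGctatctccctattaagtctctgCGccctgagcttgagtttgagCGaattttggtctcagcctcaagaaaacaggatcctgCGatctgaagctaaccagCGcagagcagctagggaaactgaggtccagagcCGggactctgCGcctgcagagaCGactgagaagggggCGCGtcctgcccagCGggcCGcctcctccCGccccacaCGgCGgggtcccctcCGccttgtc
These windows held 11 and 16 CG pairs. The 8 promoter entries found for the 11 genes held between 3 and 28, with a median of 11, against a median of 17 over the promoters of protein-coding genes tested.

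In the other direction, 4 genes had no count in either WT library and averaged at least 2 CPM in clone 2. Chil1, a secreted chitinase-like protein, read 5.0 and 6.52 CPM in clone 2, at least 28.3-fold higher than WT by a floor of 3 counts over the WT libraries, and 13.7 and 16.4 in clone 1. The others were Dusp27 (2.1 and 2.09 CPM in clone 2, at least 10.3-fold higher), the long noncoding RNA Gm47078 (at least 19.8-fold) and the antisense RNA Gm45187 (at least 13.9-fold). All 4 were detected in clone 1 as well, and Chil1 and Dusp27 were lower in clone 2 than in clone 1 (-1.38 ± 0.20 and -1.12 ± 0.24). The calls against clone 1 were lost for Chil1 at equal depth (adjusted p = 0.0737) and Dusp27 with DESeq2, at equal depth or without either clone 1 library or either clone 2 library (adjusted p up to 0.342). WT was the shallower group, and with all libraries thinned to the depth of the shallowest the number of genes at 0 in clone 2 was 20 and the number at 0 in WT was 8. Without WT replicate 2 the number at 0 in WT was 17, and without clone 2 replicate 1 the number at 0 in clone 2 was 17.

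**Figure D3:**
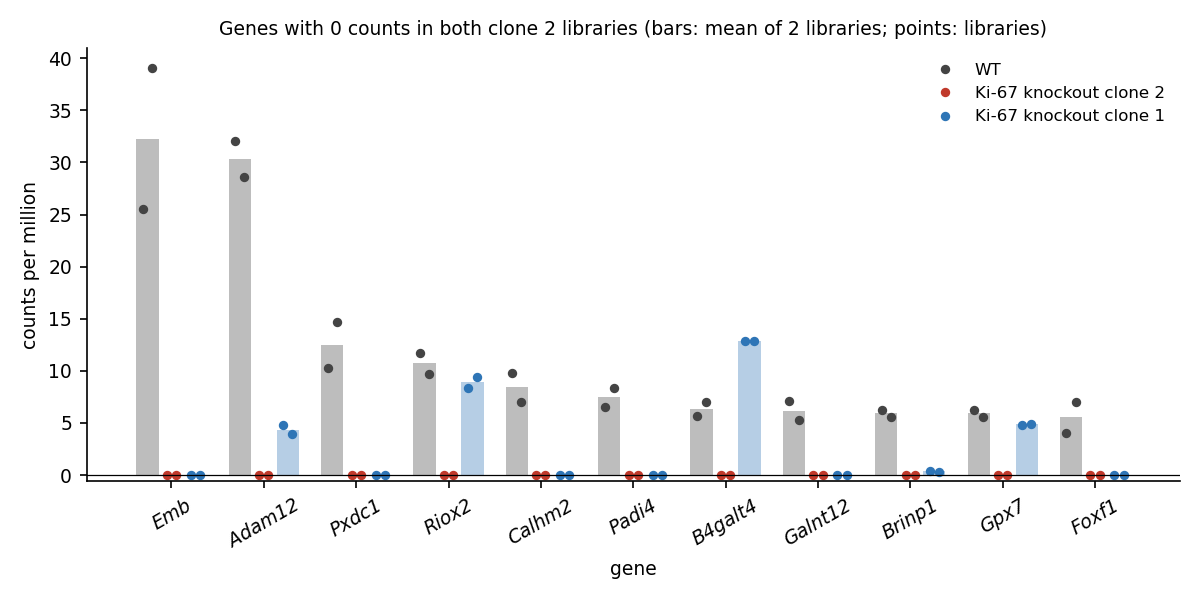
CPM of the 11 genes with 0 counts in both clone 2 libraries and at least 5 CPM on average in WT. Bars are means of 2 libraries and points are libraries; clone 1 (blue) has signal for Adam12, Riox2, B4galt4, Brinp1 and Gpx7 and is at 0 for the other 6.

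Among the genes with the largest falls beyond clone 1, Col12a1, a fibril-associated collagen, had 4.62 and 10.6 CPM in WT, 0.185 and 0.196 in clone 2 and 8.03 and 11.8 in clone 1, so clone 2 lay below the other 4 libraries (-5.42 ± 0.51, adjusted p = 5.38e-06). Igf2r, the receptor that clears IGF2 and sorts lysosomal enzymes, had 26.6 and 51.5 CPM in WT, 1.42 and 1.04 in clone 2 and 12.6 and 14.2 in clone 1, with WT, clone 1 and clone 2 in descending order (-5.03 ± 0.32 for clone 2, adjusted p = 1.38e-07). Soga1 had 32.1 and 27.1 CPM in WT, 1.91 and 1.89 in clone 2 and 24.5 and 22.2 in clone 1 (-3.61 ± 0.20 between the clones, adjusted p = 1.72e-07). H2-K1, a class I major histocompatibility chain with close paralogs, read 79.3 and 71.3 CPM in WT, 17 and 17.5 in clone 2 and 33.4 and 32.1 in clone 1 (-2.12 ± 0.14 against WT, adjusted p = 2.11e-07).

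Secreted factors moved both ways beyond clone 1. The chemokines Ccl7 and Ccl2, neighbours that attract monocytes, were lower: Ccl7 read 22 and 20.6 CPM in WT, 3.03 and 4.04 in clone 2 and 7.27 and 7.61 in clone 1, and Ccl2 read 21.2 and 21.3, 5.93 and 6.33 and 12.3 and 14.5. The neutrophil chemokines Cxcl5 and Cxcl1 were higher. Cxcl5 read 8.15 and 4.96 CPM in WT, 56.7 and 56.6 in clone 2 and 23.2 and 27 in clone 1, and exceeded clone 1 by 1.18 ± 0.16 (adjusted p = 0.000728); Cxcl1 read 2.45 and 3.88 CPM in WT, 12.2 and 9.91 in clone 2 and 4.6 and 5.22 in clone 1. The 4 chemokines were named because they were called, so the separation of their clone 2 and WT libraries follows from that choice. Ptn, the heparin-binding growth factor pleiotrophin, rose from 22 and 40.9 CPM in WT to 93.6 and 84.3 in clone 2 (1.43 ± 0.21 against WT, adjusted p = 0.000282). In clone 1 it read 29.4 and 36.9 CPM and was not called (adjusted p = 0.997). Gdf5 read 1.9 and 1.98 CPM in WT, 17.3 and 16 in clone 2 and 10.3 and 8.61 in clone 1, and Htra1, a secreted protease, 8.69 and 7.67, 20.8 and 19 and 13.7 and 11.4. Pcx, pyruvate carboxylase, read 35.3 and 27.1 CPM in WT, 52 and 60.6 in clone 2 and 24.8 and 22.3 in clone 1 (1.26 ± 0.16 between the clones, adjusted p = 0.00027). The remaining genes with the largest rises beyond clone 1 were Eps8l2 (0.90 ± 0.14 over clone 1), Adra1b (0.93 ± 0.15), Scamp5, a secretory carrier protein (0.68 ± 0.13), and Nlrp4f (0.67 ± 0.17). Against clone 1, calls ended for Ccl7 at equal depth or without clone 2 replicate 1 (adjusted p up to 0.401), Cxcl1 at equal depth or without clone 1 replicate 1 or clone 2 replicate 1 (adjusted p up to 0.103), Gdf5 at equal depth or without clone 1 replicate 2 or either clone 2 library (adjusted p up to 0.216), Htra1 without scaling factors, with DESeq2, at equal depth or without either clone 1 library or either clone 2 library (adjusted p up to 0.343), Adra1b without clone 2 replicate 2 (adjusted p = 0.102), Scamp5 without either clone 1 library or either clone 2 library (adjusted p up to 0.157) and Nlrp4f without scaling factors, with DESeq2, at equal depth or without either clone 1 library or either clone 2 library (adjusted p up to 0.322).

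The genes of cell division were examined next, because Ki-67 marks dividing cells and works on mitotic chromosomes. Over all genes tested, 12.9% were higher and 14.5% lower in clone 2 than in WT, and each list count below stands beside these shares. Of 16 condensin and cohesin genes, 13 were higher in clone 2 than in WT and 3 were not called. Their median was 0.80 against 0.00 over all genes. In clone 1 against WT, 8 of the 16 were higher and 0 lower (median 0.50). Ncapg, a condensin subunit, read 12 and 18.4 CPM in WT and 40.01 and 41 in clone 2 (1.34 ± 0.22, adjusted p = 0.000651). Smc2 (1.10 ± 0.23), the ATPase of both condensins, Ncapg2 (1.05 ± 0.20) and the cohesin subunit Stag2 (1.01 ± 0.20) were the other largest rises. Of 32 mitosis and G2/M genes, 13 were higher and 19 not called (median 0.38). In clone 1 against WT, 8 of the 32 were higher and 2 lower (median 0.29). Top2a, the topoisomerase that untangles sister chromosomes, read 107 and 137 CPM in WT, 314 and 303 in clone 2 and 193 and 273 in clone 1. Ckap2l (1.52 ± 0.21), the checkpoint kinase Bub1 (1.44 ± 0.21) and the spindle motor Kif11 (1.44 ± 0.21) rose most with it. Without clone 2 replicate 1, 8 of the 32 were higher.

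Partners of Ki-67 at the chromosome surface and nucleolus gave 7 higher and 13 not called of 20 (median 0.21): Smarca5 (1.35 ± 0.29), a chromatin remodeller, Nop58 (0.93 ± 0.19) and Ncl (0.88 ± 0.21) of the nucleolus, and Cbx5 (0.84 ± 0.20), heterochromatin protein 1 alpha, led them. Without clone 2 replicate 1, 3 of the 20 were higher. Replication genes gave 4 higher and 2 lower of 32 (median 0.14), against 12.9% higher and 14.5% lower over all genes tested. Pola1, the catalytic subunit of DNA polymerase alpha, was among the higher ones (1.20 ± 0.20). G1 regulators gave 4 and 4 of 16, with Cdk6 (1.06 ± 0.17) the largest rise and E2f2 (-1.06 ± 0.23) the largest fall, and p53 targets 3 and 4 of 18, where Cdkn1a was among the lower ones. Polycomb and DNA methylation genes gave 7 higher and 2 lower of 32 (median 0.17), with Cbx7 (2.26 ± 0.44) and Suz12 (1.24 ± 0.24) higher and Jarid2 (-1.12 ± 0.24) lower. Cbx5 was no longer called against WT without clone 2 replicate 1 (adjusted p = 0.0746).

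Base composition moved with these calls. Over protein-coding genes tested that have a transcript model, the median fold change was 0.38 in the quartile with the lowest GC content and -0.21 in the quartile with the highest, in clone 2 against WT, and the corresponding medians in clone 1 were 0.34 and -0.20. In clone 2, 31.6% of genes in the lowest quartile and 5.42% in the highest were higher than in WT. In the same quartiles 4.67% and 26.3% were lower. The condensin and cohesin list had a median GC content of 42.7%, inside the lowest quartile, and the mitosis list 46.1%. Among lists with more falls than rises, described below, several had medians inside the highest quartile. These were ion channels (57.4%), axon guidance (56.6%), collagens (56.2%), Hedgehog (55.9%) and Notch (55.7%). The integrated stress response stood at 53.7%, basement membrane at 52.9% and cholesterol synthesis at 49.7%. The main counts given for these lists are not corrected for GC content. After smooth correction for GC content and length, an analysis added after the data were seen, 10 of 16 condensin and cohesin genes and 14 of 32 mitotic genes were higher. Corrected counts of the lists with more falls are not given here.

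**Figure D4:**
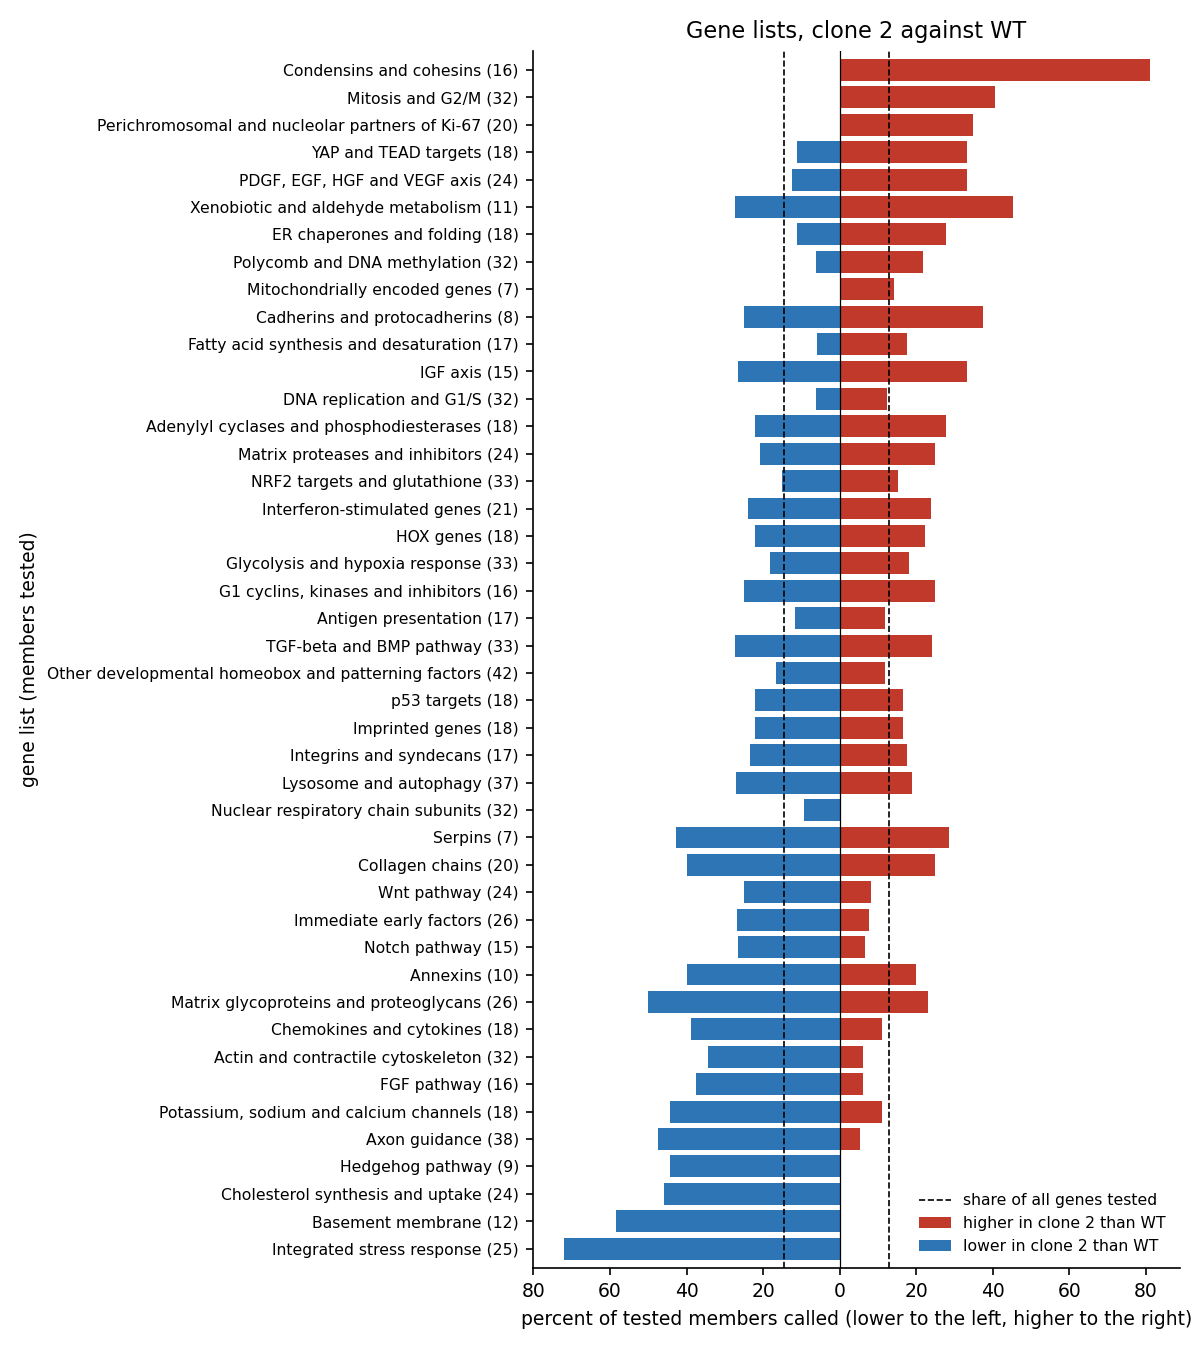
Percent of tested members of each gene list called higher (red, to the right) or lower (blue, to the left) in clone 2 than in WT, with the number tested in parentheses. Dashed lines mark the shares over all genes tested, 12.9% higher and 14.5% lower; condensins and cohesins lead the higher side and the integrated stress response the lower side.

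In the integrated stress response the factor ATF4 switches on amino-acid synthesis and transport genes. Of 25 members tested, 18 were lower in clone 2 than in WT and 7 not called (median -0.64), and 10 were lower without clone 2 replicate 1. In clone 1 against WT, 19 of the 25 were lower and 0 higher (median -0.74). Over all genes tested, 14.5% were lower and 12.9% higher in clone 2 than in WT. Trib3, a pseudokinase target of ATF4 and CHOP, read 73.6 and 111 CPM in WT, 29.5 and 35.5 in clone 2 and 23.6 and 20.8 in clone 1 (-1.53 ± 0.18, adjusted p = 4.87e-05). Slc7a11, the cystine carrier (-1.34 ± 0.24), Ddit3, the CHOP factor (-1.28 ± 0.17), and Atf5 (-1.05 ± 0.14) followed. Against clone 1, 3 members were higher in clone 2: Chac1 (0.77 ± 0.16), Mthfd2 (0.69 ± 0.13) and Pycr1 (0.65 ± 0.15), chosen after their values were seen. Slc7a11 lost its call against WT without WT replicate 2 (adjusted p = 0.0516). Other settings ended the calls against clone 1 of Chac1 without clone 1 replicate 2 or either clone 2 library (adjusted p up to 0.161), Mthfd2 without clone 1 replicate 2 or either clone 2 library (adjusted p up to 0.117) and Pycr1 at equal depth or without either clone 1 library or either clone 2 library (adjusted p up to 0.387). Cholesterol synthesis and uptake genes gave 11 lower and 13 not called of 24 (median -0.40), with 5 lower without clone 2 replicate 1 and 7 without clone 2 replicate 2. In clone 1 against WT, 10 of these 24 were lower and 1 higher (median -0.33). Dhcr7, the reductase of the last step of cholesterol synthesis, was among the lower members in clone 2, with 51.9 and 55.4 CPM in WT and 24.3 and 26.1 in clone 2 (-1.09 ± 0.14, adjusted p = 0.000108). Endoplasmic-reticulum chaperones gave 5 higher and 2 lower of 18, with Hsp90b1 (0.89 ± 0.20) and Canx (0.70 ± 0.20) the largest rises. Against WT, the call of Canx ended after GC correction or without clone 2 replicate 1 (adjusted p up to 0.162). Nuclear genes of the respiratory chain gave 3 lower and 29 not called of 32 (median 0.01), and of 7 mitochondrially encoded genes 1 was higher.

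Xenobiotic and aldehyde metabolism gave 5 higher and 3 lower of 11, against 12.9% higher and 14.5% lower over all genes tested. Ahr, the aryl hydrocarbon receptor, read 0.272 and 0.361 CPM in WT, 8.27 and 7.69 in clone 2 and 7.53 and 9.93 in clone 1 (4.53 ± 0.41, adjusted p = 3.77e-06), and its target Tiparp read 16 and 19.2 in WT and 59.2 and 50.1 in clone 2 (1.60 ± 0.18). Aldh2, the mitochondrial aldehyde dehydrogenase, fell from 99.4 and 108 to 18.6 and 20.2 CPM (-2.42 ± 0.14). Targets of NRF2 and glutathione genes gave 5 and 5 of 33, with Gsta4, a glutathione transferase (2.18 ± 0.14), and Nqo1, a quinone reductase (1.18 ± 0.13), higher and Gpx7 lower.

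The immediate early factors, which serum and growth factors induce within minutes, differed in part between the clones. Of 26 tested, 2 were higher and 7 lower in clone 2 than in WT (median -0.29), against 6 and 14 in clone 1. Between the clones, 5 were higher and 2 lower in clone 2. Over all genes tested the shares were 12.9% higher and 14.5% lower against WT, and 1.18% and 2.36% against clone 1. Egr1 read 60.6 and 76.8 CPM in WT, 59.3 and 58.9 in clone 2 and 16.5 and 15.8 in clone 1, and clone 1 lay below the other 4 libraries; the difference between the clones was 1.87 ± 0.15 (adjusted p = 4.53e-06). Fos (1.49 ± 0.32), Ier2 (1.16 ± 0.12) and Egr3 (1.14 ± 0.22), chosen after their values were seen, likewise lay higher in clone 2 than in clone 1 and were not called in clone 2 against WT. Egr2 was lower than in WT but higher than in clone 1 (1.06 ± 0.26). Dusp1 (-1.01 ± 0.13) and Dusp4 (-1.93 ± 0.17), phosphatases that switch off MAP kinases, were lower in clone 2 than in clone 1. The calls against clone 1 were lost for Fos with DESeq2, at equal depth or without clone 1 replicate 2 or either clone 2 library (adjusted p up to 0.31), Egr2 without scaling factors, with DESeq2, with limma-voom, at equal depth or without either clone 1 library or either clone 2 library (adjusted p up to 0.594) and Egr3 without either clone 1 library or either clone 2 library (adjusted p up to 0.104). The factors that fell most in clone 2 were Nr4a1 (-1.87 ± 0.18), Egr2 (-1.86 ± 0.22) and Fosb (-1.56 ± 0.26). FGF signalling, which acts through the ERK kinases, gave 6 lower and 1 higher of 16 (median -0.42). Its feedback inhibitor Spry1 read 6.52 and 9.38 CPM in WT, 1.17 and 0.717 in clone 2 and 0.101 and 0 in clone 1, and its target Etv5 51.9 and 48.4 in WT and 10.7 and 12.1 in clone 2 (-2.13 ± 0.16). The receptors Fgfr1 (-0.75 ± 0.13) and Fgfr2 (-0.64 ± 0.20) were lower in clone 2 than in both WT and clone 1. Fgfr2 was no longer called against WT without scaling factors, at equal depth or without WT replicate 2 or either clone 2 library (adjusted p up to 0.541). Against clone 1, calls ended for Fgfr1 at equal depth or without either clone 1 library or either clone 2 library (adjusted p up to 0.31) and Fgfr2 without clone 2 replicate 2 (adjusted p = 0.104).

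Matrix genes moved in both directions. Over all genes tested, 12.9% were higher and 14.5% lower in clone 2 than in WT. Basement membrane genes gave 7 lower and 5 not called of 12 (median -0.68), and 3 members, Nid1, Hspg2 and Lamb3, were lower than in clone 1. In clone 1 against WT, 5 of the 12 were lower and 2 higher (median -0.26). Lama4, a laminin chain, read 11.7 and 24.1 CPM in WT and 1.11 and 1.3 in clone 2 (-3.98 ± 0.33). Lama2, another laminin chain, had 2 counts in clone 2 (ratio of WT to clone 2 221, between 60.4 and 1837, 95% counting interval). Nid1, nidogen, which links laminin to collagen IV, was lower than in WT (-1.90 ± 0.18) and than in clone 1 (-1.07 ± 0.18). Matrix glycoproteins and proteoglycans gave 13 lower and 6 higher of 26 (median -0.41). Besides Tnc and Cthrc1, the falls included Mgp, matrix Gla protein (-2.25 ± 0.28), and Dcn, decorin, with 2 counts in clone 2 (ratio 101, between 27.3 and 849.6, 95% counting interval); Thbs1, thrombospondin-1, rose from 342 and 378 to 846 and 724 CPM (1.12 ± 0.15). Collagens gave 8 lower and 5 higher of 20 (median 0.02), with Col3a1 lower (-1.81 ± 0.22) and Col1a1 (0.84 ± 0.15) and Col7a1, the anchoring-fibril collagen (2.09 ± 0.19), higher. Proteases and inhibitors gave 6 higher and 5 lower of 24. The protease Plau, urokinase, fell (-0.67 ± 0.13) and lay 0.79 ± 0.13 above clone 1. Other settings ended the calls against clone 1 of Nid1 without clone 2 replicate 2 (adjusted p = 0.0592), Hspg2 at equal depth or without clone 1 replicate 1 or either clone 2 library (adjusted p up to 0.351) and Plau without clone 1 replicate 2 or clone 2 replicate 2 (adjusted p up to 0.0651).

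Integrins and syndecans gave 3 higher and 4 lower of 17, against 12.9% higher and 14.5% lower over all genes tested. Itga9 had 0 counts in all 4 knockout libraries against 2.72 and 2.98 CPM in WT, at least 30.6-fold lower in clone 2, and Itgb3, the beta-3 chain, fell from 15.8 and 10.6 to 1.48 and 0.783 CPM (-3.44 ± 0.32), while Itgb7 (1.91 ± 0.16) and Itgav (1.18 ± 0.17) rose. Axon guidance genes, many of which fibroblasts use for repulsion and migration, gave 18 lower and 2 higher of 38 (median -0.54). In clone 1 against WT, 21 of the 38 were lower and 1 higher (median -0.49). Besides Crmp1, the falls included Slit3, a secreted repellent, from 12.8 and 14.8 to 0.185 and 0.261 CPM (-5.92 ± 0.34, adjusted p = 7.52e-08), Sema6a, with 1 count in clone 2 (ratio 36.3, between 5.69 and 1517, 95% counting interval), and Tenm4. Unc5b, a netrin receptor, rose (0.64 ± 0.13) and lay below clone 1 (-0.96 ± 0.12).

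Ligand and receptor families were taken in turn, beside shares of 12.9% higher and 14.5% lower over all genes tested. The Notch list gave 4 lower and 1 higher of 15: the ligand Jag1 read 19.6 and 28 CPM in WT, 11.2 and 9.19 in clone 2 and 17.1 and 18.2 in clone 1 (-1.26 ± 0.20 against WT, -0.79 ± 0.19 against clone 1), and the receptor Notch3 had 0 counts in the 4 knockout libraries against 1.63 and 3.88 CPM in WT. The Hedgehog list gave 4 lower and 5 not called of 9 (median -0.35), with 2 lower without clone 2 replicate 1 and 7 without WT replicate 1: the co-receptors Boc (-3.11 ± 0.27) and Gas1 (-0.91 ± 0.15) and the factors Gli2 (-0.92 ± 0.20) and Gli1 (-0.87 ± 0.21). Boc read 8.15 and 8.39 CPM in WT, 0.864 and 1.04 in clone 2 and 2.37 and 2.2 in clone 1. The Wnt list gave 6 lower and 2 higher of 24, with Lgr4, the R-spondin receptor, higher (2.21 ± 0.25), and Tcf7, a transcription factor with 2 counts in clone 2 (ratio 12.8, between 2.85 and 118, 95% counting interval) and the inhibitors Dkk2 (-3.38 ± 0.41) and Rnf43 (-2.79 ± 0.30) lower. TGF-beta and BMP genes gave 8 higher and 9 lower of 33 (median -0.02), with Gdf5, Id2 (1.41 ± 0.14) and Smad9 (1.29 ± 0.20) higher and the BMP antagonist Chrd (-1.62 ± 0.27) and Fstl1 (-1.24 ± 0.16) lower; Fstl1 was also lower than in clone 1 (-0.87 ± 0.16). In the IGF axis, with 5 higher and 4 lower of 15, the binding proteins Igfbp4 (1.26 ± 0.22) and Igfbp7 (1.13 ± 0.17) rose and Igf2r and Grb14, an inhibitor of insulin receptor signalling (-1.0 ± 0.15), fell beyond clone 1. The PDGF, EGF, HGF and VEGF list gave 8 higher and 3 lower of 24 (median 0.36), with Hgf (-2.02 ± 0.35) and the receptor Pdgfra (-0.83 ± 0.19) lower and the neurotrophin receptor Ntrk3, at 1 count in WT, at a ratio of 52, between 9.14 and 2072 (clone 2 over WT, 95% counting interval). The calls against WT were lost for Gli1 without WT replicate 2 or clone 2 replicate 1 (adjusted p up to 0.0656), Gli2 at equal depth or without clone 2 replicate 1 (adjusted p up to 0.124), Notch3 with DESeq2 (adjusted p = 0.249) and Tcf7 without clone 2 replicate 1 (adjusted p = 0.0604). Against clone 1, calls ended for Jag1 without scaling factors, at equal depth or without either clone 1 library or either clone 2 library (adjusted p up to 0.374), Boc with DESeq2, at equal depth or without either clone 1 library or either clone 2 library (adjusted p up to 0.614), Fstl1 without clone 1 replicate 2 or clone 2 replicate 2 (adjusted p up to 0.14) and Grb14 without clone 2 replicate 2 (adjusted p = 0.162).

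The chemokine and cytokine list gave 2 higher and 7 lower of 18, and 4 were higher and 2 lower than in clone 1. Over all genes tested the shares were 12.9% and 14.5% against WT, and 1.18% and 2.36% against clone 1. Besides the chemokines above, Il11 (-1.96 ± 0.21), a profibrotic cytokine, and Il1rl1, the IL-33 receptor, from 1129.7 and 1249 to 352 and 291 CPM (-1.89 ± 0.14), were lower. Interferon-stimulated genes gave 5 higher and 5 lower of 21 (median 0.04), with Ifit2 (1.21 ± 0.24) higher and Bst2 (-1.29 ± 0.27) and Ifitm3 (-1.19 ± 0.13) lower. HOX genes gave 4 higher and 4 lower of 18; Hoxa10 had 0 counts in the 4 knockout libraries against 1.36 and 3.34 CPM in WT and Hoxa3 (1.22 ± 0.24) was higher. Hoxa10 lost its call against WT with DESeq2 (adjusted p = 0.266). Ion channels gave 8 lower and 2 higher of 18, with 3 lower without clone 2 replicate 1 and 5 without either clone 2 replicate 2 or WT replicate 2. Adenylyl cyclases and phosphodiesterases, the enzymes that make and break cyclic nucleotides, gave 5 higher and 4 lower of 18. Pde5a (1.39 ± 0.32) was higher beside Adcy1, and Pde4b (-1.53 ± 0.22) lower. Glycolysis and hypoxia genes gave 6 and 6 of 33 and lysosome and autophagy genes 7 higher and 10 lower of 37.

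Marker lists of other cell types were summed in each library. The 8 smooth-muscle markers, among them Acta2, Tagln, Actg2, Lmod1 and Des described above, summed to 1153 and 907 CPM in WT, 220.4 and 239.7 in clone 2 and 1153 and 1159 in clone 1, with 4 of the 6 tested lower and 1 higher in clone 2. The 8 cardiac markers summed to 9.51 and 10.8 CPM in WT, 55.9 and 53.9 in clone 2 and 93.5 and 90.4 in clone 1. Tnnt2 and Nkx2-5 were higher in clone 2 than in WT, and Myh6 was at 0 in all libraries. The 10 skeletal-muscle markers summed to 6.25 and 4.42 CPM in WT, 7.53 and 7.37 in clone 2 and 22.2 and 23.4 in clone 1. Of the 3 tested, 2 were lower in clone 2 than in WT, Acta1 among them, and 1 was higher (median -1.89). Myod1, Myog and Myf5 were at 0 in all libraries. Of the fibroblast markers, 5 of 11 tested were lower and 2 higher in clone 2 than in WT, and the numbers in clone 1 were also 5 and 2. Among the lower ones, Cd34 read 374 and 389.8 CPM in WT and 102 and 100.4 in clone 2, Thy1 215 and 215 and 87.8 and 87.4, and Vim 5337 and 5399 and 3575 and 3489. Col1a1, described above, was among the higher ones. Against clone 1, Cd34 was higher in clone 2 (1.07) and Thy1 lower (-0.53). The 7 osteoblast markers summed to 574 and 946 CPM in WT, 276 and 259 in clone 2 and 132 and 135 in clone 1. Nearly all of that was Spp1, the secreted phosphoprotein osteopontin, with 562 and 929.6 CPM in WT and 261 and 246 in clone 2 (-1.56 ± 0.19, adjusted p = 4.91e-05), while Ibsp was at 0 in all libraries. The 7 endothelial markers summed to 38.04 and 44.4 CPM in WT, 22.7 and 20.8 in clone 2 and 15.8 and 12.3 in clone 1; both tested members, Emcn (-0.91 ± 0.17) and Cdh5 (-1.52 ± 0.30), were lower in clone 2, and Kdr and Cldn5 were at 0 in all libraries. The 8 leukocyte and macrophage markers summed to between 52.0 and 61.7 CPM in every library, with Csf1r higher, Cd14 lower and Adgre1 at 0 in all libraries. The 8 chondrocyte markers summed to 20.6 and 18.0 CPM in WT and 11.9 and 13.2 in clone 2, and the neuron, glia and adipocyte lists to at most 11.3 CPM in any library. The part of these markers in the results was not tested. Other settings ended the calls against WT of Vim without either clone 2 library (adjusted p up to 0.107) and Cd14 without scaling factors, after GC correction or without WT replicate 1 or either clone 2 library (adjusted p up to 0.17). In bulk RNA, fewer cells of a type and less RNA per cell cannot be told apart.

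Genes near Mki67 were counted separately. Of 45 protein-coding genes tested that lie within 5 Mb of Mki67, 8 were higher and 12 lower in clone 2 (median -0.26). Over all 1001 genes tested on chromosome 7, 6.99% were higher and 30.4% lower (median -0.26), and over all chromosomes 12.9% and 14.5%. On the centromere side 7 of 27 were higher and 3 lower (median 0.26), and on the telomere side 1 of 18 was higher and 9 lower (median -0.39). Adam12, at 0 in clone 2, lies on the centromere side (chr7:133883199-134232146). On the telomere side Echs1, a mitochondrial enzyme of fatty-acid oxidation, read 111 and 109.9 CPM in WT and 55.8 and 55 in clone 2 (-0.99 ± 0.14), and Fuom, fucose mutarotase, 7.34 and 5.41 and 0.185 and 0. Between the clones 5 of the 45 were called: Htra1 was higher in clone 2, and Adam12, Fgfr2, Fank1 (-2.19 ± 0.34) and Ptpre (-0.76 ± 0.18) were lower. The calls against clone 1 were lost for Fank1 at equal depth (adjusted p = 0.313) and Ptpre without scaling factors, with DESeq2, with unstranded counts, at equal depth or without clone 1 replicate 2 or either clone 2 library (adjusted p up to 0.955).

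Whole chromosomes differed in the balance of calls. On chromosome 4, 38.5% of 789 genes tested were lower in clone 2 than in WT and 4.94% higher (median -0.36), on chromosome 7 the shares were 30.4% and 6.99% of 1001 (median -0.26), and on chromosome 13 they were 27.5% and 3.53% of 510 (median -0.25). The medians of these chromosomes in clone 1 were -0.37, -0.27 and -0.32, and between the clones they were 0.02, 0.04 and 0.03. Chromosome 6 had a median of 0.23 in clone 2 against clone 1. Of its 648 genes tested, 39 were higher in clone 2 than in clone 1, among them Ptn and Mthfd2, and 21 were lower. Over all genes the shares were 1.18% higher and 2.36% lower. Chromosome 16 held the most genes lower than in clone 1, 31 of 416 with 4 higher (median -0.04), and Riox2, B4galt4 and Ehhadh were among the lower ones. Chromosomes 17, 15 and 12 had medians of -0.19, -0.18 and -0.17 between the clones. Whether gene dosage differed was not tested.

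**Figure D5:**
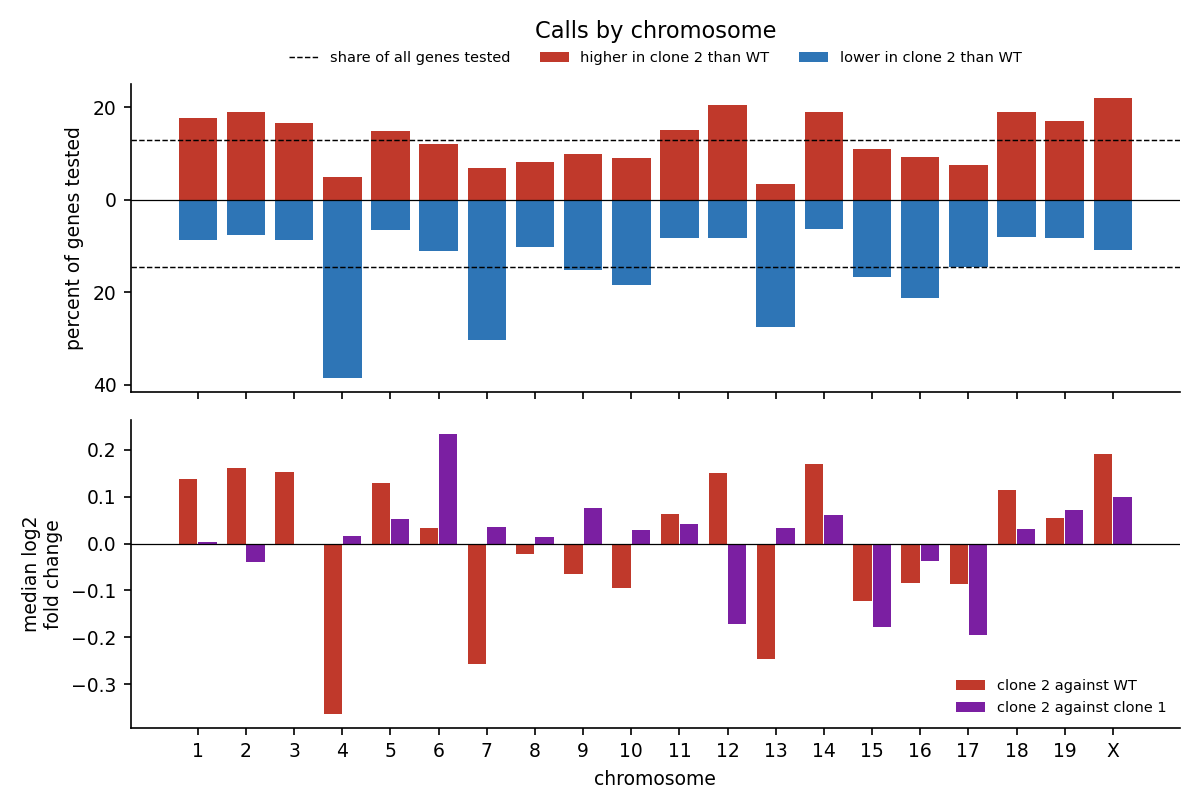
Upper panel: percent of genes tested on each chromosome called higher (red, above 0) or lower (blue, below 0) in clone 2 than in WT, with dashed lines at the shares over all genes. Lower panel: median log2 fold change per chromosome for clone 2 against WT (red) and clone 2 against clone 1 (purple); chromosomes 4, 7 and 13 are lowest against WT, and chromosome 6 is highest against clone 1.

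Several small RNA genes were lower in clone 2. Of 124 snoRNA genes tested 32 were lower and 2 higher than in WT, and of 73 snRNA genes 17 were lower and 0 higher. Over all genes tested the shares were 14.5% lower and 12.9% higher. Small RNA classes took 7.96% and 7.62% of gene counts in WT, 5.36% and 6.37% in clone 2 and 5.60% and 5.28% in clone 1.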

How the data were processed

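RNA from 6 NIH/3T3 libraries was analysed, with 2 libraries in each of WT, Ki-67 knockout clone 1 and Ki-67 knockout clone 2, grouped by title. The deposited tables hold raw counts per gene, made by the authors with STAR 2.6.0c on GRCm38, with FastQC for read quality, per the submitters' processing notes; for the annotation, no release is named there. The deposited column for the reverse strand was used, and rows that name no gene (46.6 to 50.5% of all) were left out. Of 54146 identifiers, 54079 matched GENCODE M21, which gave symbols and positions.

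Counts were fitted with edgeR 4.0.16 in R 4.3.3 (limma 3.58.1) by quasi-likelihood with TMM scaling, 1 coefficient per group and 3 residual degrees of freedom, after filterByExpr with a minimum count of 10, and p-values were adjusted by Benjamini-Hochberg over all 13120 genes. CPM values were divided by TMM-scaled totals. Genes at 0 counts in a group were given a floor of 3 counts over the group, and genes with 1 to 3 counts a ratio with an exact 95% conditional interval; both cover counting error only. Alternatives were DESeq2 1.42.0, limma-voom, other scaling and filters, unstranded counts, thinning to equal depth, a replicate block, leaving out each library, and a correction for GC content and length added after the data were seen. The fit was tested on simulated data.

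Genes named were Mki67, the 15 largest changes per direction among called protein-coding genes whose average log2 CPM reached 3, the 10 largest per direction also called against clone 1 (average log2 CPM from 2), genes at 0 counts in 1 group, up to 4 called members per direction of each list, and genes within 5 Mb of Mki67; a few genes that this rule names are not reported here. The members and the 44 gene lists were chosen with earlier results of these data known.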

Additional observations from a re-analysis of the deposited data

Results flagged for a closer look

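The clones differed from each other in the direct test of their difference (edgeR, adjusted p below 0.05) for 155 genes higher and 310 lower in clone 2. Values below are log2 differences of clone 2 from clone 1 for genes named above. Higher in clone 2, among genes with more than 3 counts in each clone, were Ppargc1a (3.47), Egr1 (1.87), Fos (1.49), Ptn (1.43), Pcx (1.26), Cxcl5 (1.18), Cxcl1 (1.17), Ier2 (1.16) and Egr3 (1.14). Next came Spp1 (1.12), Cd34 (1.07), Egr2 (1.06), Gas1 (1.05), Tenm4 (1.04), Adra1b (0.93), Eps8l2 (0.90), Gdf5 (0.81) and Plau (0.79). Smaller positive differences were those of Chac1 (0.77), Mthfd2 (0.69), Emcn (0.68), Scamp5 (0.68), Nlrp4f (0.67), Htra1 (0.66) and Pycr1 (0.65).

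Lower in clone 2, among genes with counts in both clones, were Col12a1 (-5.63), Acta1 (-5.38), Ikzf1 (-4.42), CT010467.1 (-4.29), Ehhadh (-4.21), Tagln (-4.0), Soga1 (-3.61), Igf2r (-3.43), Myl9 (-3.40) and Lamb3 (-3.27). These were followed by Actg2 (-2.77), Acta2 (-2.69), Srpx2 (-2.44), Atp2b4 (-2.23), Fank1 (-2.19), Plac8 (-2.03), Dusp4 (-1.93), Mogat2 (-1.75), Lmod1 (-1.66) and Tmsb4x (-1.60). Intermediate negative differences were those of Csrp1 (-1.39), Chil1 (-1.38), Boc (-1.26), Ccl2 (-1.13), Dusp27 (-1.12), Plb1 (-1.10), Tnnt2 (-1.08), Ccl7 (-1.07), Nid1 (-1.07) and Fgfr2 (-1.04). Lower as well were Cdkn1a (-1.03), Dusp1 (-1.01), Unc5b (-0.96), H2-K1 (-0.93), Des (-0.90), Fstl1 (-0.87), Igfbp4 (-0.86), Grb14 (-0.80), Jag1 (-0.79) and Ptpre (-0.76). The negative differences nearest to 0 were those of Myh9 (-0.69), Col7a1 (-0.59), Hspg2 (-0.58), Fgfr1 (-0.58) and Thy1 (-0.53). With no count in clone 2, Adam12 (at least 46.5-fold), B4galt4 (at least 135-fold), Brinp1 (at least 3.83-fold), Gpx7 (at least 51.2-fold) and Riox2 (at least 93-fold) were lower by a floor of 3 counts over the clone 2 libraries. Spry1, with 2 counts in clone 1 and 30 in clone 2, had a ratio of clone 2 to clone 1 of 17, between 4.31 and 147 (95% counting interval).

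The call against clone 1 ended under at least 1 alternative for Adra1b, Boc, Brinp1, CT010467.1, Ccl7, Chac1, Chil1, Col7a1, Cxcl1, Des, Dusp27, Egr2, Egr3, Emcn, Fank1, Fgfr1, Fgfr2, Fos, Fstl1, Gdf5, Grb14, Hspg2, Htra1, Igfbp4, Jag1, Lmod1, Mthfd2, Myh9, Nid1, Nlrp4f, Plau, Ptpre, Pycr1, Scamp5, Spry1, Tenm4 and Thy1. The highest adjusted p reached under an alternative lay between 0.0592 (Nid1) and 0.955 (Ptpre) over these genes, and Tenm4 lost its call under 8 alternatives (adjusted p up to 0.682).

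In data outside the counts used, clone 2 replicate 1 had 216024 reads that fit more than 1 gene on the strand not counted, against between 3382 and 23263 in the other 5 libraries.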

How the results depend on the processing

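Leaving out 1 library at a time gave between 754 and 2227 genes higher and between 915 and 1889 lower in clone 2 than WT, with the lowest counts (754 and 915) without clone 2 replicate 1 and 967 and 1116 without clone 2 replicate 2; an arm left with 1 library was assumed to vary like the others. Genes higher than both WT and clone 1 ranged from 8 to 134 and lower than both from 39 to 202. The number at 0 in clone 2 ranged from 11 to 17 and at 0 in WT from 4 to 17. The 31 genes higher than both became 19 without scaling factors, 14 with DESeq2, 61 without a filter, 20 at a minimum count of 50, 10 at equal depth and 68 after the GC and length correction. The 108 lower than both became 168 without a filter, 52 at equal depth and 167 after the correction. At equal depth 20 genes were at 0 in clone 2 and 8 in WT, and with lower CPM minimums (2 in WT, 1 in clone 2) the numbers were 24 and 10. With the replicate number as a block, 56 were higher than both. The replicate numbers were not shown to pair the libraries: the correlation of same-numbered deviations was -0.094 for WT and clone 2, 0.27 for WT and clone 1 and -0.11 for the clones. Values that turned sign were those of CT010467.1, which was 1.45 against WT and 0.47 against clone 1 with unstranded counts and from -3.83 to 0.46 against WT with 1 library left out, and of Gm10800, from -0.60 to 4.41 with 1 library left out. The cause was not tested. Of the genes named, 165 were called against WT, 143 of them under every alternative that tested them, and 76 were called against clone 1, 39 of them under every alternative. Of 1496 recomputed counts of list members, 224 moved by over 1.5 times.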
